A study of Mus musculus with 6 samples.

Results

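The 10 genes described here encode the enzymes, the chaperone and the processing factors through which procollagen passes on its way to the fibril. They were taken by gene name, but the choice was made with earlier results of these data known. They include the prolyl 4-hydroxylase subunits P4ha1, P4ha2 and P4ha3, the lysyl hydroxylases Plod1, Plod2 and Plod3, and the collagen chaperone Serpinh1. The rest are the C-proteinase Bmp1 and its enhancers Pcolce and Pcolce2. The set makes up 10 of the 45777 genes listed, each with 1 entry. All 10 passed the filter on low counts that left 17210 genes for testing. Total RNA was sequenced from tumors of B16F10, a mouse melanoma cell line, grown in the hind footpad (n = 3) or in the skin of the flank (n = 3), with 1 library per tumor. The study asked how the RNA of the same melanoma differs between these implantation sites. The labels give the host of both groups as Foxn1-/- mice, which lack a thymus and mature T cells, at 8 weeks of age, whereas the series title and the methods describe syngeneic grafts, for which the methods name C57BL/6J mice. Site is the factor that the labels vary, and no treatment is given. The labels describe removed tumors and the methods isolated tumor cells, with no step named that separates melanoma cells from host cells. The methods have the cells injected at several sites of a mouse at once, and the sources used here do not say which tumors shared a host. B16F10 is a single line, and the p-values measure only the spread between these tumors.

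Collagen chains are modified in the endoplasmic reticulum before they fold. Prolyl 4-hydroxylase, a tetramer of catalytic alpha subunits and the disulfide isomerase P4hb, makes the hydroxyproline that keeps the triple helix stable at body temperature, and lysyl hydroxylases make the hydroxylysine used in cross-links and sugar attachment. Serpinh1, also called HSP47, binds the folded helix until it leaves the endoplasmic reticulum. Outside the cell Bmp1 removes the C-propeptide, a step that Pcolce proteins speed up, and fibrils can then form. The hydroxylases need oxygen, iron, 2-oxoglutarate and ascorbate, and genes of both hydroxylase families are known targets of hypoxia-inducible factors.

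Between 46529649 and 66364366 reads per tumor fell on genes, and 3 reads equalled between 0.0438 and 0.0673 CPM, the count relative to a library size scaled by edgeR's TMM method. The melanocyte markers, among them Dct, Tyrp1 and Pmel, summed to between 13850 and 29560 CPM, were present in every tumor and gave no call in either direction for the 10 genes of the list with edgeR's test (0 higher and 1 lower at an unadjusted p under 0.05 and a fold of 2). Without footpad replicate 2, 1 of these melanocyte genes was called lower, as were 197 of all 17639 genes tested in that fit. The median log2 fold change of the list was then -0.67, beside -0.29 with all tumors. Footpad replicate 2 carried 497.7 CPM of keratinocyte markers and 624.5 CPM of skeletal muscle markers, above every other tumor in both. Neutrophil markers summed to 372 and 179.4 CPM in footpad replicates 1 and 3 and lay from 4.762 to 30.81 CPM elsewhere.

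Of the 10 genes, 1 was called higher in the footpad, Bmp1, and 0 were called lower, where the quasi-likelihood test of edgeR made a call from a 2-fold difference together with an adjusted p under 0.05. Over all tested genes the same rule called 2.89% higher and 0.872% lower. Without the fold threshold 1 gene rose and 1 fell, Plod2, where the rule called 3.43% of all genes higher and 1.44% lower. At an unadjusted p under 0.05 and a fold of 2 the counts were 3 higher and 0 lower, and DESeq2 called 3 higher and 0 lower. Of all 17210 tested genes, 1577 were higher and 486 lower by that unadjusted rule. DESeq2 called 1154 of the 17210 higher and 352 lower. All footpad tumors lay above all flank tumors for 4 of the 10 genes, P4ha3, Plod3, Bmp1 and Pcolce2, and below them for 1, Plod2. Over all tested genes these shares were 17.5% and 14.9%. The median log2 fold change of the 10 genes (footpad minus flank) was -0.002, beside -0.004 over all tested genes.

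**Figure D1:**
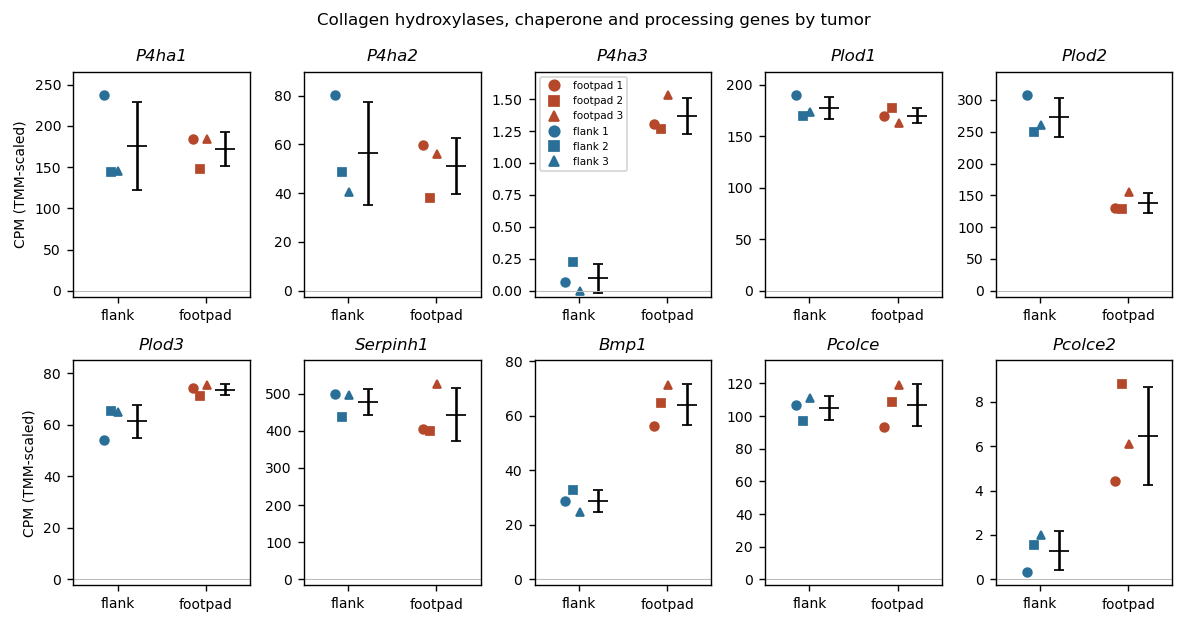
Each panel plots the CPM (TMM-scaled) of 1 gene in the 3 flank tumors (blue) and the 3 footpad tumors (red), with the marker shape giving the replicate number and the bar the mean ± SD. Bmp1 lay between 56.3 and 71.47 in the footpad and between 24.88 and 32.72 in the flank, and Plod2 lay the other way, between 128.7 and 155.9 against 249.3 and 307.6.

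The levels of the 10 genes spanned more than 2 orders of magnitude on the FPKM scale, which divides by transcript length and so allows genes to be compared. Serpinh1 ranked first in all 6 tumors, at a mean of 174.5 ± 33.3 FPKM in the footpad and 187.5 ± 6.73 in the flank (SD, n = 3 each). In the footpad it was followed by Pcolce (61.76 ± 10.7), Plod1 (46.56 ± 4.37), P4ha1 (38.92 ± 3.31) and Plod2 (33.01 ± 4.38). In the flank Plod2 stood next to Serpinh1, at 63.84 ± 2.73, with Pcolce at 60.18 ± 3.63, a difference within their spread. Plod2 thus had rank 5 of the 10 in each footpad tumor and ranks 2, 2 and 3 in flank replicates 1, 2 and 3. Plod3 and P4ha2 did not differ beyond their spread in either site, at 19.97 ± 1.20 and 19.82 ± 3.61 FPKM in the footpad and 16.78 ± 2.98 and 21.68 ± 6.60 in the flank. Bmp1 had the mean of rank 8 in both sites (14.58 ± 3.10 and 6.491 ± 1.09), and Pcolce2 and P4ha3 were the lowest in every tumor.

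Prolyl 4-hydroxylase was represented by all its alpha subunits. P4ha1 (chr10:59323197-59373304, mm10), the main alpha subunit of most tissues, had 184.0, 147.6 and 184.2 CPM in footpad replicates 1, 2 and 3 and 237.4, 144.0 and 145.2 CPM in the flank replicates. The groups overlapped, and the highest tumor was flank replicate 1. The log2 fold change was -0.03 with a standard error of 0.22 (edgeR, adjusted p = 0.948), and its 95% interval ran from -0.55 to 0.49. P4ha2 (chr11:54100924-54131668), the second alpha subunit, had 59.67, 38.14 and 56.0 CPM in the footpad and 80.15, 48.51 and 40.28 CPM in the flank. It was again highest in flank replicate 1, and its log2 fold change of -0.14 had an interval from -0.80 to 0.52 (edgeR, adjusted p = 0.800).

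P4ha3 (chr7:100285489-100319701), the third alpha subunit, was close to the limit of detection in the flank. It had 58, 87 and 75 reads in the footpad and 4, 13 and 0 reads in the flank, which equalled 1.302, 1.269 and 1.531 CPM against 0.069, 0.222 and 0 CPM. The groups did not overlap. P4ha3 passed the filter on low counts only through its footpad reads, the site where it was high, which limits the weight of its test results. The 0 reads of flank replicate 3 allow a level of up to 0.0479 CPM, by counting error only. The ratio of mean CPM was 14.1, and the log2 fold change was 3.80 with an interval from 1.60 to 6.0. It was 5.25 without flank replicate 2 and 3.20 without flank replicate 3. With limma it was 2.215 on log2(FPKM + 0.1) and 0.544 on log2(FPKM + 1), so its size depended on the constant added. P4ha3 missed the threshold in edgeR (adjusted p = 0.0613) and passed it in DESeq2 (adjusted p = 0.000917). Its adjusted p ranged between 0.000917 and 0.1775 over the alternatives. P4ha3 made up 0.863% ± 0.124 of the FPKM of the alpha subunits in the footpad and 0.0578% ± 0.0757 in the flank (SD, n = 3 each; exact permutation test, two-sided, p = 0.1, the smallest that 3 tumors against 3 allow). P4ha1 made up 65.86% ± 2.60 and 64.49% ± 2.59 (exact permutation test, p = 0.5), so the mix of the abundant subunits did not differ beyond its spread.

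The promoters of the alpha subunits are shown as a description of their sequence. P4ha1 and P4ha2 were highest in flank replicate 1, as were 23.9% of all tested genes, and P4ha3 was not. The lines give the bases that lie before the gene's earliest annotated start within the window of 250 bases before the RefSeq start, all on the plus strand of GRCm38.p6, read 5′ to 3′. Capitals mark the letters ACGTG or GCGTG on either strand, the core of the site that hypoxia-inducible factors recognise. P4ha1 (chr10:59323046-59323196) and P4ha3 (chr7:100285270-100285488) are cut by 99 and 31 bases at the start of the annotated gene, and P4ha2 (chr11:54100674-54100923) is whole.
P4ha1: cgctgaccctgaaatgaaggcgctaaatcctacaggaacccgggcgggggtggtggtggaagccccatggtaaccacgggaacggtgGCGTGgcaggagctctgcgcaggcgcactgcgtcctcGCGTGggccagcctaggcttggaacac
P4ha2: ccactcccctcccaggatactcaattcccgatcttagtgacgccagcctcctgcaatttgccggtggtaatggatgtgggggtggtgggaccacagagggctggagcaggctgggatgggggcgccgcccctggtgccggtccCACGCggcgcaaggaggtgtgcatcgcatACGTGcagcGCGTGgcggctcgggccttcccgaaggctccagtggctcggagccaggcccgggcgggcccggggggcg
P4ha3: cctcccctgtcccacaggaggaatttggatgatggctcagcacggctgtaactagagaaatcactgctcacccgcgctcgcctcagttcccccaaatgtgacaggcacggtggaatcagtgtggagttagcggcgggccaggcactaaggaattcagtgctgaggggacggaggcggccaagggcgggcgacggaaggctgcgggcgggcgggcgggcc

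The full windows held 3 matches in P4ha1, 3 in P4ha2 and 0 in P4ha3, and 2 of the P4ha1 matches are within the bases printed. RefSeq windows were at hand for 8 of the 10 genes, all but Plod2 and Bmp1. The letters were found in 6 of these 8, with 4 matches in Plod3 and 1 each in Plod1, Serpinh1 and Pcolce, and in 0 of the windows of P4ha3 and Pcolce2. Of 32841 promoters 38.6% held them, and of those of tested genes 52.3%. CATTCC, the letters read by TEAD factors, the DNA-binding partners of YAP and TAZ, were in 0 of the 8 windows, where 12.6% of all promoters and 11% of those of tested genes held them on either strand. A match describes the letters only, and its part in the levels of these genes was not tested.

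Among the lysyl hydroxylases the balance differed between the sites. Plod2 (chr9:92539636-92608428), which hydroxylates lysines of the telopeptides and so sets the kind of cross-link, had 130.0, 128.7 and 155.9 CPM in the footpad and 307.6, 249.3 and 261.3 CPM in the flank. Every footpad tumor lay below every flank tumor, with means of 138.2 ± 15.35 and 272.7 ± 30.82 CPM (SD, n = 3 each). Plod2 fell by 0.98 on the log2 scale (standard error 0.15, interval -1.33 to -0.63; edgeR, adjusted p = 0.0213), a 1.97-fold difference that stood just short of the fold threshold. The adjusted p rose to 0.0900 without footpad replicate 1, to 0.0887 without footpad replicate 3 and to 0.0772 without flank replicate 3, with the log2 fold change between -0.94 and -1.08 in these fits. The whole table then had 5, 0 and 10 genes called lower, beside 150 with all tumors.

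Plod1 (chr4:147909753-147936776), which acts on lysines of the helix, had 169.7, 177.8 and 162.8 CPM in the footpad and 190.1, 169.6 and 173.8 CPM in the flank. The groups overlapped, and the log2 fold change of -0.06 had a narrow interval, from -0.35 to 0.22 (edgeR, adjusted p = 0.780). Plod3 (chr5:136987019-136996646), which adds sugars to hydroxylysine as well as hydroxylating lysine, had 74.46, 71.11 and 75.33 CPM in the footpad and 54.02, 65.21 and 64.79 CPM in the flank. Its groups did not overlap, but the log2 fold change of 0.26 missed the threshold (interval -0.03 to 0.56; edgeR, adjusted p = 0.239).

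On the FPKM scale Plod2 made up 31.9%, 31.37% and 36.06% of the lysyl hydroxylase RNA in the footpad and 52.12%, 47.56% and 48.54% in the flank. The mean was 33.11% ± 2.57 against 49.41% ± 2.40 (SD, n = 3 each), a difference of -16.3 percentage points that was larger than the spread within either site (exact permutation test, two-sided, p = 0.1, the smallest possible). Plod1 was the most abundant of the family in the footpad, at 46.8%, and Plod2 in the flank. The shares of Plod1 (46.8% against 37.63%) and Plod3 (20.09% against 12.97%) did not overlap between the sites either, as shares of 1 total move against each other.

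**Figure D2:**
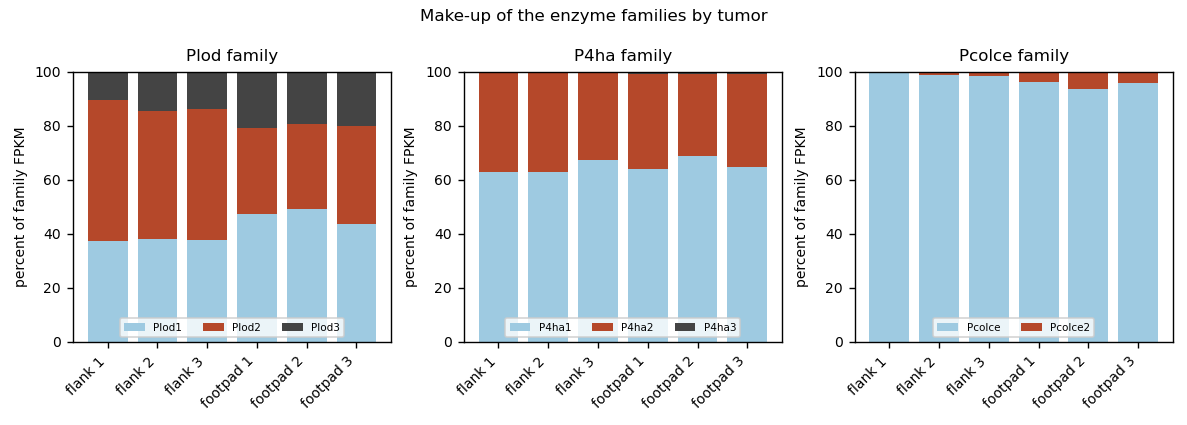
Stacked bars give the percent of each family's summed FPKM taken by its members in each of the 6 tumors, for the prolyl hydroxylase alpha subunits, the lysyl hydroxylases and the C-proteinase enhancers. The Plod2 band took between 31.37% and 36.06% in the footpad tumors and between 47.56% and 52.12% in the flank tumors, while the P4ha1 band stayed between 62.94% and 68.81% in all 6.

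The collagen chaperone Serpinh1 (chr7:99345375-99353239) had 403.5, 399.8 and 525.9 CPM in the footpad and 498.6, 438.0 and 496.1 CPM in the flank. The groups overlapped. The log2 fold change was -0.11 with a standard error of 0.17 (edgeR, adjusted p = 0.715), and the interval from -0.49 to 0.28 leaves out a change of 2-fold in either direction. P4ha3 lies 932.2 kb from Serpinh1 on chromosome 7, with the values given above.

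The processing factors differed among themselves. Bmp1 (chr14:70474555-70520716), the metalloproteinase that cuts off the C-propeptide of fibrillar procollagens, had 56.3, 64.7 and 71.47 CPM in the footpad and 28.79, 32.72 and 24.88 CPM in the flank. No flank tumor reached the level of a footpad tumor, and the means were 64.16 ± 7.6 and 28.8 ± 3.923 CPM (SD, n = 3 each). Bmp1 rose 2.23-fold, with a log2 fold change of 1.16, a standard error of 0.16 and an interval from 0.79 to 1.52 (edgeR, adjusted p = 0.0154). The adjusted p was 0.0611 without footpad replicate 1, 0.0879 without footpad replicate 3 and 0.0703 without flank replicate 3, with log2 fold changes between 1.05 and 1.24. In these fits 26, 0 and 36 genes were called higher in the whole table, beside 497 with all tumors.

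Pcolce (chr5:137605105-137611522), the abundant enhancer of Bmp1, had 93.25, 108.6 and 118.8 CPM in the footpad and 107.0, 96.74 and 111.3 CPM in the flank. The groups overlapped, with a log2 fold change of 0.03 (interval -0.30 to 0.35; edgeR, adjusted p = 0.927). Pcolce2 (chr9:95637628-95695551), the less abundant enhancer, had 4.422, 8.794 and 6.084 CPM in the footpad and 0.345, 1.54 and 2.013 CPM in the flank. Its groups did not overlap, and its highest value was in footpad replicate 2, the tumor with the most keratinocyte and muscle RNA, whose part in this value was not tested. The log2 fold change of 2.31 (interval 0.88 to 3.73) missed the threshold in edgeR (adjusted p = 0.0704) and passed it in DESeq2 (adjusted p = 0.00107). Pcolce2 took 4.70% ± 1.36 of the FPKM of the enhancers in the footpad and 1.01% ± 0.654 in the flank (SD, n = 3 each; exact permutation test, two-sided, p = 0.1, the smallest possible).

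Among the substrates of these proteins, the fibrillar procollagens had a higher summed level in the footpad. Other collagen types were left out of this sum, so it does not cover all substrates. Of 11 fibril-forming procollagen chains, 7 rose in the footpad and 1 fell, with a median log2 fold change of 2.77. The number that rose was 2 without flank replicate 3, 1 without footpad replicate 1 and 0 without footpad replicate 3 in edgeR, with 7 at an unadjusted p under 0.05 and a fold of 2 in each of these fits. Col5a3 and Col5a1, chains of type V collagen, rose by 2.77 and 2.87 on the log2 scale (edgeR, adjusted p = 0.00677 and 0.0141). Col1a1 and Col1a2, the chains of type I collagen, rose by 4.10 and 3.74 on the log2 scale, and Col3a1 by 4.08 (edgeR, adjusted p = 0.0206, 0.0237 and 0.0254). Col2a1, the chain of cartilage collagen, was the one that fell, by 2.71 (edgeR, adjusted p = 0.00677). The summed procollagen RNA was 3339, 3265 and 4441 CPM in the footpad and 195.2, 575.0 and 203.6 CPM in the flank.

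The levels of the 10 genes were also set against this sum. Procollagen CPM per CPM of Serpinh1 was 8.276, 8.166 and 8.443 in the footpad and 0.3916, 1.313 and 0.4104 in the flank. The log2 ratio of Serpinh1 to procollagen was -3.05 ± 0.024 in the footpad and 0.75 ± 0.989 in the flank (SD, n = 3 each), a difference of -3.80 or 13.9-fold. Serpinh1 itself differed by -0.11, so this difference is mostly that of the procollagen sum and is given without a test. The ratio spread little among footpad tumors and widely among flank tumors, where replicate 2 had the most procollagen. Of the 9 genes with reads in every tumor, 8 had a lower ratio in all footpad tumors than in all flank tumors, as had 95.8% of all tested genes with reads in every tumor, so the count says nothing particular about these genes. The differences ran from -2.53 for Bmp1 to -4.66 for Plod2, and Pcolce2 had overlapping groups and a difference of -1.09.

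P4ha3 was the member whose ratio to procollagen varied least over the 5 tumors in which it had reads. The log2 ratio was -11.32, -11.33 and -11.5 in the footpad and -11.47 and -11.34 in flank replicates 1 and 2, a range of 0.1774 over 5 tumors. Flank replicate 3 had 0 reads where 4.714 would have been counted at the ratio of the other flank tumors. Even 3 reads would have given a log2 ratio of -12.05, below those of the 5 tumors, so this tumor did not share their ratio closely. The flank values rest on 4 and 13 reads, so that counting error alone is wide, and no test was made of this pattern, which was singled out after its values were seen.

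**Figure D3:**
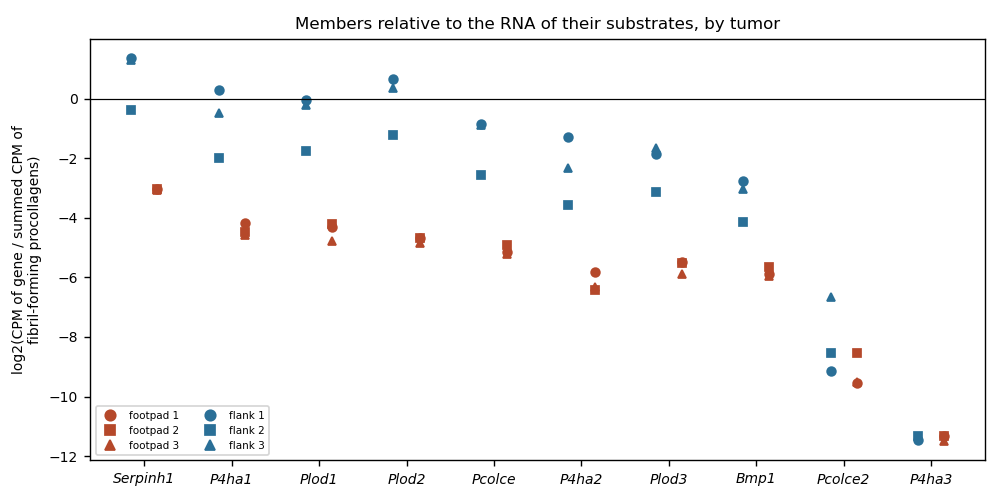
Points give the log2 ratio of each gene's CPM to the summed CPM of the 11 fibril-forming procollagen chains in each tumor, footpad in red and flank in blue. Serpinh1 sat near -3.05 in the footpad and between -0.39 and 1.35 in the flank, while P4ha3 stayed between -11.5 and -11.32 in the 5 tumors with reads (flank replicate 3 had 0 reads and has no point).

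Markers of fibroblasts, the main makers of fibrillar collagen in skin, moved with the procollagens. The list summed to 276.8, 258.7 and 326.2 CPM in the footpad and 64.9, 93.6 and 77.8 CPM in the flank. Of its 14 genes 13 were tested and 9 were called higher, and 12 had all footpad tumors above all flank tumors. Over all tested genes these shares were 2.89% and 17.5%. The calls fell to 1 without flank replicate 1 and to 0 without flank replicate 3, footpad replicate 1 or footpad replicate 3 in edgeR, with 11 at an unadjusted p under 0.05 and a fold of 2 in each of these fits. Tcf21 was at 0 in every tumor, and Dpt and Pi16 were at 0 in flank replicates 1 and 3. In RNA of whole tumors a change in the number of such cells and a change of RNA per cell cannot be told apart. Relative to the fibroblast sum, the log2 ratio of Serpinh1 differed by -1.99 (3.98-fold lower in the footpad), that of Bmp1 by -0.72 and that of Plod2 by -2.86, each without overlap between the sites, as for 85.6% of all tested genes with reads in every tumor. Pcolce2 overlapped, with a difference of 0.72. The sum leans on Fbln1, a matrix protein of fibroblasts, with a mean of 40.52 CPM in the flank and 49.86 CPM in the footpad and overlapping groups. With the mean of log2 CPM over the list in place of the sum, the difference for Serpinh1 was -3.573. Endothelial markers summed to between 133.3 and 209.7 CPM in the footpad and between 76.51 and 95.30 CPM in the flank, and macrophage markers to between 104 and 126.2 CPM and between 24.54 and 103.6 CPM. The part of these cells in the results for Bmp1, P4ha3 and Pcolce2 was not tested. Markers of tendon, cartilage and bone summed to at most 1.694 CPM in any tumor.

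The rest of the collagen biosynthesis pathway was read from a list of 28 genes, of which 26 were tested, 3 were called higher and 0 lower, with a median log2 fold change of 0.19. At an unadjusted p under 0.05 and a fold of 2 the list had 6 genes higher and 0 lower, and DESeq2 called 5 higher and 0 lower. Of all 17210 tested genes, 1577 were higher by the unadjusted rule and 1154 were called higher by DESeq2. All footpad tumors lay above all flank tumors for 11 of the listed genes and below them for 0, beside 17.5% and 14.9% of all tested genes. The N-proteinases, which remove the other propeptide, held 2 of the 3 calls. Adamts14 had 28.58, 22.45 and 20.13 CPM in the footpad and 2.553, 5.577 and 3.196 CPM in the flank, a log2 fold change of 2.65 (edgeR, adjusted p = 0.0141). Adamts2 had 23.46, 27.96 and 27.05 CPM against 3.467, 11.58 and 4.043 CPM, a log2 fold change of 2.04 (edgeR, adjusted p = 0.0480). Its call was lost in 5 of the 6 fits that left out 1 tumor, all but that without flank replicate 2 (log2 fold change 2.79, adjusted p = 0.00532), with adjusted p-values up to 0.146 in the other fits. Adamts3, the third N-proteinase, stayed below 0.6 CPM in every tumor and was not called (log2 fold change 4.11; edgeR, adjusted p = 0.0760).

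The third call was Creb3l1, a transcription factor released from the endoplasmic reticulum that drives collagen secretion genes. It had 2.357, 1.094 and 2.103 CPM in the footpad and 0.2415, 0.3763 and 0.1438 CPM in the flank, a log2 fold change of 2.86 (edgeR, adjusted p = 0.0308). Its call was lost in 4 of the 6 fits that left out 1 tumor, and that of Adamts14 in 3. Without footpad replicate 1, footpad replicate 3 or flank replicate 3 the list had 0 calls in edgeR, with 5 genes higher at an unadjusted p under 0.05 and a fold of 2 in each. The tolloid proteinases related to Bmp1, Tll1 and Tll2, had log2 fold changes of 1.10 and 1.13 and were not called (edgeR, adjusted p = 0.153 and 0.351). Mep1a and Mep1b, the meprin proteinases, were not tested, with Mep1b at 0 in every tumor.

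The partners of the 10 genes in the endoplasmic reticulum were not called by edgeR. P4hb, the beta subunit of prolyl 4-hydroxylase, had 1677, 2065 and 1851 CPM in the footpad and 2309, 1481 and 1532 CPM in the flank, a log2 fold change of 0.07 with the highest value in flank replicate 1, as for P4ha1 and P4ha2. Among the prolyl 3-hydroxylases and their partners, P3h1, P3h2, P3h3 and Crtap had log2 fold changes of 0.36, 0.17, -0.21 and 0.07. P3h4, which forms a complex with Plod1, was low, with 2.986, 2.363 and 4.165 CPM against 1.242, 1.095 and 0.5113 CPM (log2 fold change 1.74; edgeR, adjusted p = 0.0608). DESeq2 called P3h4 higher (adjusted p = 0.00293), as did edgeR with a minimum of 10 counts in all tumors (0.0448) and limma on log2(FPKM + 0.1) (0.0423). The isomerases Ppib, Fkbp7, Fkbp9, Fkbp10 and Fkbp14 lay between -0.34 and 0.11, and the galactosyltransferases Colgalt1 and Colgalt2 at -0.06 and -0.01. Of the export genes, Sec24d had a log2 fold change of 0.44 (edgeR, adjusted p = 0.0751) without overlap, Sec23a 0.32, Mia2 0.02 and Mia3 0.01. Sparc, a collagen chaperone of the matrix, had 0.91 (edgeR, adjusted p = 0.176), Tmem38b 0.21, and P4htm, a membrane prolyl hydroxylase at or below 0.3816 CPM, 2.43 (edgeR, adjusted p = 0.257).

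**Figure D4:**
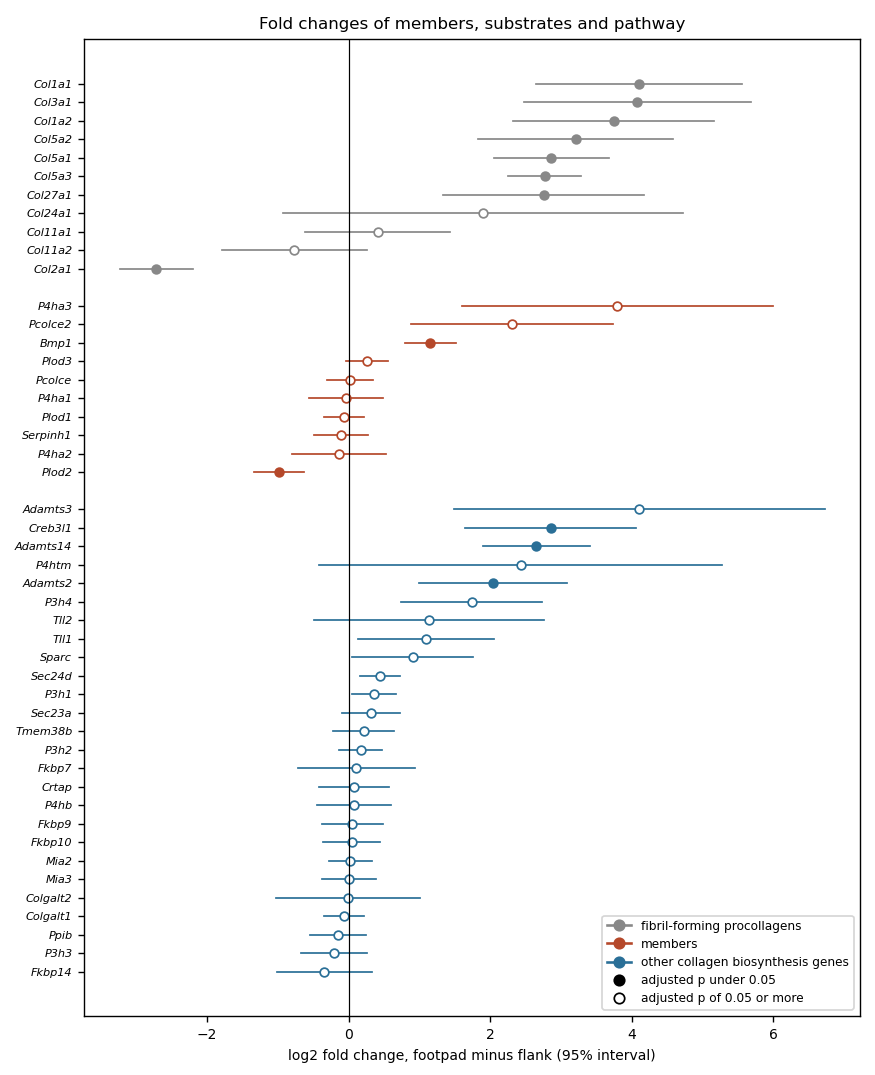
Points give the log2 fold change (footpad minus flank) and lines its 95% interval for the fibril-forming procollagens (grey), the 10 genes (red) and the other collagen biosynthesis genes (blue), filled where the edgeR adjusted p was under 0.05 without a fold threshold. The procollagens reached 4.10, while 6 of the 10 genes lay between -0.14 and 0.26 and only Bmp1 and Plod2 among the 10 are filled.

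Since the hydroxylase genes respond to oxygen, a list of 20 hypoxia response genes was read beside them. None of the 20 was called in either direction by edgeR, with 1 higher and 2 lower at an unadjusted p under 0.05 and a fold of 2, and DESeq2 called 0 higher and 2 lower. The median log2 fold change was -0.43, with 15 of the 20 below 0. The smallest p-values belonged to Car12, a carbonic anhydrase, at -1.42 (edgeR, adjusted p = 0.0509) and Pdk1, a kinase that inhibits pyruvate dehydrogenase, at -0.96 (edgeR, adjusted p = 0.0562). Pdk1 had 133.3, 159.4 and 116.9 CPM in the footpad and 343.6, 196.3 and 256.5 CPM in the flank.

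Flank replicate 1 was the highest tumor for 16 of the 20 hypoxia genes, where it was the highest for 23.9% of all tested genes. It was also the highest for 4 of the 10 genes, namely P4ha1, P4ha2, Plod1 and Plod2, and the lowest for Plod3, at 54.02 CPM. Footpad replicate 3 was the highest for 5 of the 10 genes, where it was the highest for 9.73% of all tested genes. Without flank replicate 1 the median log2 fold change of the hypoxia list was -0.05, and the log2 fold changes of P4ha1 and P4ha2 were 0.25 and 0.20 (edgeR, adjusted p = 0.341 and 0.597). The log2 fold change of Plod2 was -0.89 without flank replicate 1 (edgeR, adjusted p = 0.0379) and -0.98 with all tumors. Of the 20 hypoxia genes, 4 had all footpad tumors below all flank tumors, Pdk1 and Car12 among them, and 0 had the reverse. Over all tested genes these shares were 14.9% and 17.5%. Car12 had 4.265, 4.448 and 3.042 CPM in the footpad and 6.778, 10.38 and 14.3 CPM in the flank. The part of hypoxia in the result for Plod2 was not tested.

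**Figure D5:**
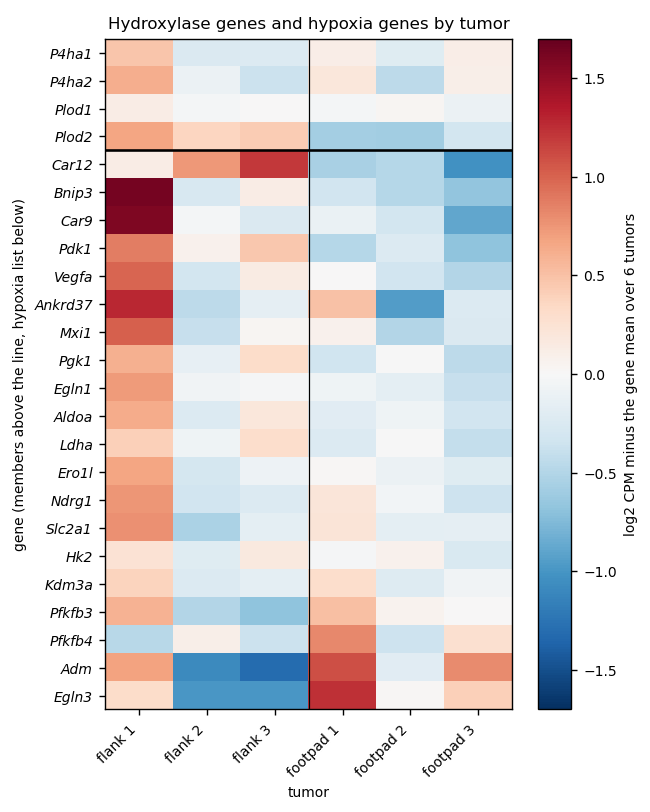
Rows are 4 hydroxylase genes (above the line) and the 20 hypoxia response genes (below it), columns are the 6 tumors, and the colour gives log2 CPM minus the gene's own mean over the tumors. Flank replicate 1 held the highest value of 16 of the 20 hypoxia genes and of the 4 hydroxylase genes shown, P4ha1, P4ha2, Plod1 and Plod2. P4ha3 and Plod3, which were not highest in that tumor, are not shown.

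Ascorbate, the cofactor of the hydroxylases, was covered by 7 genes, of which 6 were tested, with 0 called higher and 1 lower. Gulo, the last enzyme of ascorbate synthesis and mainly a liver gene, had 0 reads in all footpad tumors and 1.00, 0.308 and 2.54 CPM in the flank (edgeR, adjusted p = 0.0382). It passed the filter on low counts only through its flank reads. The call was lost in 5 of the 6 fits that left out 1 tumor, all but that without flank replicate 2, with adjusted p-values up to 0.119. Slc23a2, the ascorbate transporter of most cells, had 81.20, 73.37 and 75.56 CPM in the footpad and 41.12, 63.46 and 56.93 CPM in the flank. Its groups did not overlap, and the log2 fold change of 0.51 was not past the threshold (edgeR, adjusted p = 0.126).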

How the data were processed

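RNA of 3 footpad and 3 flank B16F10 tumors was analysed, grouped by the sample labels. The authors made stranded total RNA libraries, trimmed reads with Trimmomatic, aligned them with HISAT2 2.1.0 to mm10 and deposited read counts per RefSeq gene, without normalization. The deposited FPKM values were scaled by the authors for depth and transcript length. The counting program is not given in the sources used here, so reads shared between near-identical or overlapping genes are uncertain. Symbols came from the FPKM tables, because 26 of them were altered, some to dates, in the count table. Total RNA libraries measure RNA, not enzyme activity.

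Counts were fitted for all genes with edgeR 4.0.16 in R 4.3.3 (TMM, filterByExpr, glmQLFit, glmQLFTest, Benjamini-Hochberg). Standard errors were the log2 fold change divided by the square root of F, and intervals used a confidence level of 95%. Depth was between 46529649 and 66364366 reads. Intervals and detection limits of single counts cover counting error only. Shares of FPKM were compared with an exact permutation test in scipy 1.17.1, and log2 ratios of CPM are given as descriptions, a choice made after their values were seen. Alternatives were DESeq2 1.42.0, upper-quartile scaling, no filter, a minimum of 10 counts in all tumors, limma 3.58.1 on log2(FPKM + 1) and log2(FPKM + 0.1), a replicate block, no fold threshold and leaving out each tumor. The fits were tested on simulated data. The text names the 10 genes, every tested gene of the collagen biosynthesis list, up to 4 genes of each other pathway list by p-value, and the 3 genes nearest in profile to each of the 10. Marker genes, Col1a2, Col3a1, the untested Mep1a and Mep1b, and the P4ha3 ratio to procollagen were chosen after their values were seen. The 10 genes and the lists were chosen with earlier results of these data known.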

Additional observations from a re-analysis of the deposited data

How the results depend on the processing

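Depth was not the limit for the abundant genes, while P4ha3 in the flank rested on 4, 13 and 0 reads. With the replicate block 0 of the 10 genes and 0 of the collagen biosynthesis genes were called higher by edgeR (3 and 6 at an unadjusted p under 0.05 and a fold of 2), as 0 genes were called in the whole table. Same-numbered tumors did not deviate together (correlations 0.0544, -0.0965 and -0.115), and no tumor pair of 1 number was the best match. Tumors of both sites may come from the same mice, but nothing links the numbers to mice, so a pairing by host was not tested. With the block the adjusted p was 0.0769 for Bmp1 and 0.0858 for Plod2, at log2 fold changes of 1.16 and -0.98. DESeq2 called 3 of the 10 genes higher and 5 of the biosynthesis genes, and limma called 2 of the 10 on log2(FPKM + 1) and 2 on log2(FPKM + 0.1). Of all 17210 tested genes DESeq2 called 1154 higher, and limma called 271 on log2(FPKM + 1) and 639 on log2(FPKM + 0.1). Leaving out 1 tumor gave between 0 and 1 of the 10 called higher, between 0 and 1 called lower (Plod2 without flank replicate 2) and between 0 and 3 biosynthesis genes. Without footpad replicate 3, 0 genes were called in the whole table, with 1459 higher and 420 lower at an unadjusted p under 0.05 and a fold of 2. Without the fold threshold 1 gene was called lower. The small log2 fold changes of 3 genes turned sign: P4ha1 (0.0185 and 0.0194 in the limma fits, 0.0039 with the replicate block, -0.1583 to 0.2453 without 1 tumor), P4ha2 (-0.3327 to 0.2028) and Pcolce (-0.0586 to 0.1129). With the mean of log2 CPM over the list in place of its sum, the difference in the Serpinh1 ratio was -2.292 for procollagen and -3.573 for fibroblast markers, since low genes then weigh as much as high ones. P4ha3 was not tested under the filter of 10 counts in every tumor. The cause of the lost calls was not tested.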

Other observations

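Profiles over the 6 tumors were compared by the root mean square difference of log2 CPM centred on each gene's mean. Nearest to Bmp1 stood Nox4, an oxidase that makes hydrogen peroxide, with 9.743, 9.684 and 10.45 CPM in the footpad and 4.45, 5.919 and 4.41 CPM in the flank (difference 0.123), then Sag (0.124) and S100a16 (0.133). Nearest to P4ha3 stood Wnt11, a Wnt ligand, with 1.145, 0.8751 and 1.327 CPM against 0.069, 0.137 and 0 CPM (0.244), then Htr2a (0.253) and Trabd2b (0.311). Nearest to Plod2 stood LOC115489132 (0.0602), LOC115489096 (0.0645) and Phpt1 (0.0777), and 146 genes lay within 0.2 of it. Nearest to Pcolce2 stood H1f5 (0.300), Peg12 (0.310) and Myh3 (0.315), with 0 genes within 0.2. Nearest to P4ha1 stood Fam126a, Lxn and R74862, and nearest to P4ha2 Kdm7a, Ap1g2 and Parp10. Profiles that hardly moved had many near neighbours, 3685 genes within 0.2 for Plod1, 3212 for Pcolce, 2464 for Serpinh1 and 2417 for Plod3. For these the nearest were Diaph3, Vps39 and Vps9d1 (Plod1), Ap4b1, Zc3h10 and Gm12693 (Pcolce), Ing1, Prkrip1 and Ifngr1 (Serpinh1), and Uhmk1, Xpo4 and Trappc10 (Plod3). The likeness is a description over 6 tumors that share their libraries.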
